A study of Mus musculus with 12 samples.

Results

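Livers of mice that overexpressed MYC from embryonic life onward (3 livers, called MYC 1, 2 and 3) were compared with livers of tTA-only mice (2 livers, called control 1 and 2). These 5 libraries were chosen by their titles from 12 in the study, and all genes counted in them were analysed. MYC mice carried LAP-tTA together with TRE-MYC. The controls carried LAP-tTA alone, so the tTA driver is shared by both groups. tTA, a transactivator that doxycycline keeps inactive, was driven by the liver-specific LAP promoter. MYC was switched on at about embryonic day 8 by taking doxycycline out of the mothers' drinking water, controls followed the same doxycycline schedule, and the livers were collected 4 weeks after birth. Total RNA of the liver was sequenced. Hepatocytes are named as the cell type, but no sorting is described, so transcripts of every liver cell are part of each value. Strain and sex are not given in the labels, and in all 5 libraries Y-linked genes were expressed and Xist lay between 3.51 and 10.3 CPM (counts scaled to library size), which is a male pattern.

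MYC is a transcription factor that binds DNA as a dimer with MAX, most tightly at the E-box. It raises many genes for ribosomes, nucleotides, amino acid uptake and cell-cycle entry, while MXD and MNT proteins compete with it for MAX. In the liver MYC is known as a driver of hepatoblastoma-like and hepatocellular tumours. The fetal liver expresses AFP, IGF2 and H19 and houses blood formation, both of which end around and after birth, when hepatocytes take up the metabolic functions of the adult organ.

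The libraries of the MYC model held between 12511170 and 17690798 counts. In a principal component analysis of the 5 libraries, the first component took 73.1% of the variance and set the MYC livers (-32.8, -92.6 and -79.5 for replicates 1, 2 and 3) apart from the controls (104.3 and 100.5). On this component MYC 1 therefore stood between the controls and the other MYC livers. On the second component (12.3%) MYC 1 lay apart from all others. It was at 63.0, against -2.0 and -44.4 for MYC 2 and 3 and 0.1 and -16.6 for the controls. Replicates differed by more than counting error, with a chi-square per degree of freedom of 36.7 to 103 among MYC livers and 11.2 between the controls, and no libraries were identical. The mitochondrially encoded share of counts was 20.8, 15.1 and 15.3% in MYC livers and 15.8 and 15.0% in controls (exact permutation test, two-sided p = 0.8, where 3 against 2 libraries cannot go below 0.2). The labels do not say whether the livers of a group come from different litters, so p-values measure only the spread between libraries, which the fit estimates over all 12 libraries of the series, including the YAP and YAP control livers.

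Genes were tested with edgeR's quasi-likelihood test, and "rose" and "fell" are used only for an adjusted p (Benjamini-Hochberg, 17964 genes) below 0.05. By this rule 3291 genes changed (18.3% of those tested): 1754 rose (9.76%) and 1537 fell (8.56%). Among them 1428 rose and 943 fell by at least 2-fold. The MYC and control livers did not overlap for 3284 of the changed genes, against 53.0% of all tested genes. The median log2 fold change over all genes was 0.02. When libraries were scaled by their total counts alone the median moved to 0.43, and 3277 genes rose and 743 fell, so each change below is relative to the typical gene. In bulk RNA, fewer cells of a type and less RNA per cell cannot be told apart. Without control 1 or 2, which leaves a lone control whose spread is taken from the other groups, 792 and 872 genes changed. The number was 1683 without MYC 2, 2264 without MYC 3 and 4192 without MYC 1. Of the 3291 genes, 590 kept their call in each of these 5 fits. These are preferred as examples, and for others the adjusted p without the liver that ends the call is given. Levels are normalised CPM, listed in the order MYC 1, 2 and 3 or control 1 and 2. Values in parentheses after them are log2 fold changes, MYC minus control, ± SE. The SE comes from the fit over all 12 libraries and not from the 5 livers alone.

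**Figure D1:**
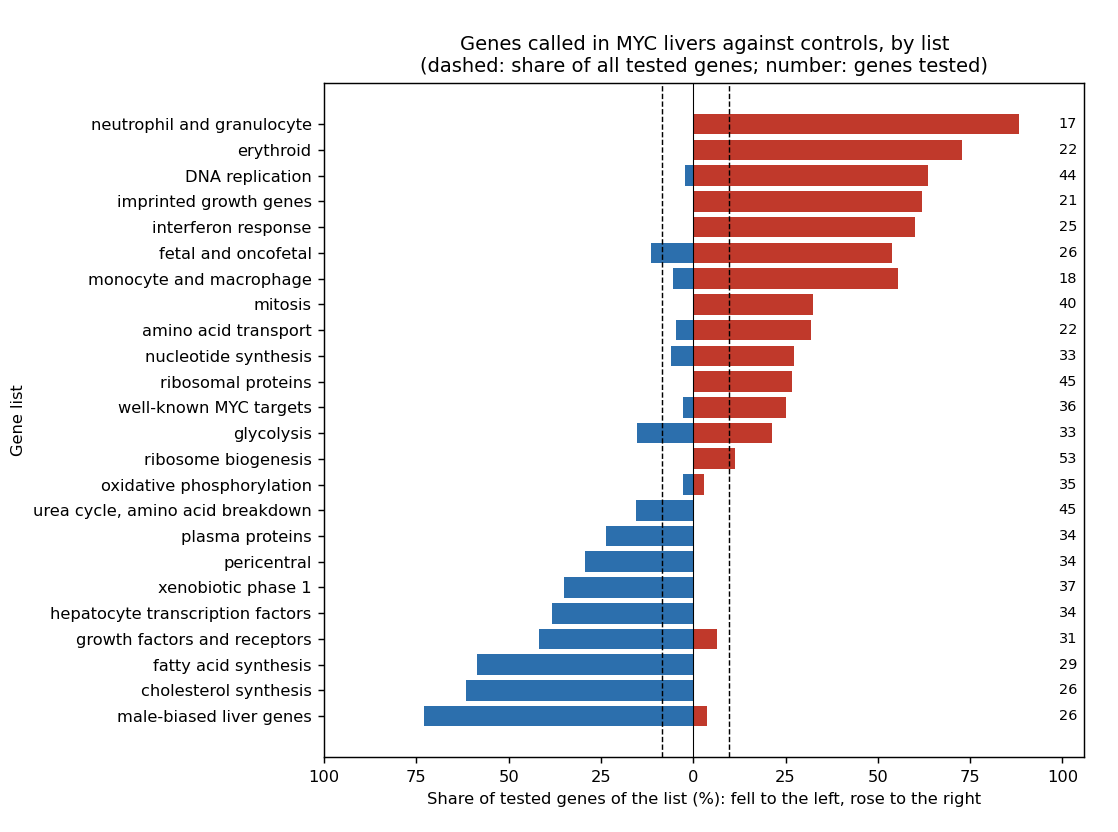
Share of the tested genes of each list (horizontal axis, percent) that rose (red, to the right) or fell (blue, to the left) at adjusted p under 0.05, with the number of genes tested at the right edge. Dashed lines mark the shares among all tested genes, 9.76% rising and 8.56% falling: granulocyte, erythroid and replication genes lie far to the right, and cholesterol, fatty acid and male-biased genes far to the left.

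Myc itself (ENSMUSG00000022346.15, chromosome 15, 61985391 to 61990374) was counted at 31.4, 23.2 and 22.2 CPM in the MYC livers and at 15.5 and 6.71 CPM in the controls. The MYC livers were all above the controls, but the difference did not pass (log2 fold change 1.21 ± 0.67, adjusted p = 0.242). The labels do not name the species of the TRE-MYC transgene, and transgene reads may not be assigned to this symbol, so this value is no measure of the transgene. Among the other members of the MYC and MAX network, Mxd1, a partner of MAX that represses E-box genes, rose from 13.4 and 10.9 to 19.7, 61.8 and 38.9 CPM (1.72 ± 0.42, adjusted p = 0.0179). Its relative Mxd4 fell from 110.0 and 107 to 61.8, 59.4 and 84.2 CPM (-0.67 ± 0.17, adjusted p = 0.0212). Mlxipl, the carbohydrate-sensing factor ChREBP, fell from 413 and 469.9 to 179.8, 97.2 and 188 CPM (-1.51 ± 0.36, adjusted p = 0.017). The 11 members that did not pass include Max at 32.8, 33.4 and 26.5 CPM against 18.1 and 25.7 CPM and Mycn, which lay at 2.14, 0.561 and 0.232 CPM with MYC and 2.92 and 4.83 CPM in controls. Leaving out single livers, the adjusted p exceeded 0.05 for Mxd1 (0.104 without control 1 and 0.141 without control 2), Mxd4 (0.0781 without MYC 2, 0.136 without control 1 and 0.111 without control 2) and Mlxipl (0.0551 without MYC 2, 0.079 without control 1 and 0.106 without control 2).

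Genes of the fetal liver were among the largest rises. H19 (ENSMUSG00000000031.16, chromosome 7, 142575529 to 142578143), an imprinted noncoding RNA, was at 11.2 and 13.2 CPM in the controls and at 17358, 17145 and 27741 CPM in the MYC livers, where it took 1.65, 1.95 and 3.23% of all counts (log2 fold change 10.73 ± 1.39, adjusted p = 0.00139). Its neighbour Igf2 (ENSMUSG00000048583.16, chromosome 7, 142650766 to 142666816), the fetal insulin-like growth factor, was at 8.31 and 7.33 CPM in controls and 8592, 13439.8 and 17029 CPM with MYC (10.70 ± 1.29, adjusted p = 0.000977). No MYC liver came near the controls for either gene, and the lowest MYC liver for Igf2 was replicate 1. Igf2os, transcribed from the opposite strand at this locus, had no counts in the controls and 13.5, 21.6 and 42.8 CPM with MYC, at least 104-fold higher against a floor of 3 counts per library. Whether counting used the strand is not stated, so reads of Igf2os and Igf2 cannot be told apart. Afp (chromosome 5, 90490737 to 90508907), the fetal counterpart of albumin, was at 11.8 and 11.9 CPM in controls and 2514, 6288 and 4306 CPM with MYC (8.53 ± 1.36, adjusted p = 0.00371).

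A second imprinted cluster, on chromosome 12, moved as well. Dlk1, a membrane-bound growth regulator of fetal liver cells, had no counts in the controls and 13.1, 33.3 and 36.9 CPM in the MYC livers (at least 111-fold higher). Meg3 (ENSMUSG00000021268.17, chromosome 12, 109541001 to 109571726), a noncoding RNA of the same cluster, was at 1.503 and 1.17 CPM in controls and 81.9, 163 and 215 CPM with MYC (6.84 ± 0.55, adjusted p = 0.000159). Rian was at 0.972 and 1.09 CPM in controls and 46.1, 117 and 105 CPM with MYC (6.42 ± 0.63, adjusted p = 0.000355). In each of these 3 genes MYC 1 was the lowest of the MYC livers and still far above both controls. Other imprinted genes rose too: Peg10, derived from a retrotransposon, from 0.972 and 0.624 to 27.4, 94.6 and 153 CPM (6.84 ± 0.90, adjusted p = 0.00163). Grb10, an adaptor that restrains insulin and IGF signalling, rose from 18.6 and 22.5 to 184, 325 and 475 CPM (3.99 ± 0.52, adjusted p = 0.00139). Peg3 was at 57.98 and 50.4 CPM in controls and 497, 809 and 874 CPM with MYC (3.74 ± 0.62, adjusted p = 0.00388). In all, 13 of 21 imprinted growth genes tested rose and none fell, with a median log2 fold change of 3.74, also with members that had no counts in a group set to their bound. The rises were 8 without control 2. Igf2r, Gnas, Mest and Plagl1 were among those that did not pass: Igf2r lay at 137, 136 and 259.7 CPM with MYC and 129.6 and 114 CPM in controls, and Mest at 7.86, 7.64 and 7.31 CPM with MYC and 5.303 and 5.54 CPM in controls.

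Of 26 tested genes listed as fetal or oncofetal, 14 rose, 3 fell and 9 did not pass. The rises were 9 without control 1 and 9 without control 2. Bex2 was at 0.177 and 0.312 CPM in controls and 45.1, 93.3 and 109 CPM with MYC (8.33 ± 0.87, adjusted p = 0.000516). Bex1, with 3 counts in both controls together, was 598-fold (95% counting interval 204 to 2899.9) higher. Tff3, a secreted trefoil peptide, was at 0.619 and 0.624 CPM in controls and 35.3, 121 and 101 CPM with MYC (7.09 ± 0.94, adjusted p = 0.00165). Spink1, a secreted protease inhibitor, was at 0.707 and 0.312 CPM in controls and 37.5, 60.01 and 37.2 CPM with MYC (6.46 ± 0.87, adjusted p = 0.00181). The surface protein Cd24a was at 4.77 and 6.08 CPM in controls and 183, 791 and 267 CPM with MYC (6.25 ± 1.16, adjusted p = 0.00778), highest in MYC 2. Scd2, the stearoyl-CoA desaturase of fetal and neonatal tissue, was at 8.22 and 9.67 CPM in controls and 129, 278 and 748 CPM with MYC (5.43 ± 0.70, adjusted p = 0.0015), whereas Scd1, the desaturase of adult liver, fell. Not every fetal gene followed. Gpc3, a fetal proteoglycan, lay at 8.16, 7.01 and 6.38 CPM with MYC and 4.33 and 4.83 CPM in controls (0.65 ± 0.84, adjusted p = 0.647), Igf2bp1 had levels of 0, 0 and 0.05804 CPM with MYC and 0 and 0.07797 CPM in controls, and Lin28a and Lin28b did not reach the counts needed for a test.

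The members of this list that fell include factors known to shut off Afp after birth. Zbtb20 (ENSMUSG00000022708.16, chromosome 16, 42875881 to 43642602), a zinc finger repressor of Afp, fell from 818 and 973 to 275, 224 and 343 CPM (-1.67 ± 0.23, adjusted p = 0.00126). Zhx2, a homeobox repressor of Afp, H19 and Gpc3, fell from 38.8 and 36.4 to 17.9, 6.73 and 9.63 CPM (-1.71 ± 0.34, adjusted p = 0.00704), least in MYC 1. The mRNA-binding protein Igf2bp2 fell from 8.397 and 10.1 to 2.14, 0.981 and 0.696 CPM (-2.85 ± 0.48, adjusted p = 0.00302). Among the fetal and imprinted genes named, the adjusted p without single livers exceeded 0.05 for Afp (0.0585 without control 1 and 0.0552 without control 2), Dlk1 (0.0621 without control 1 and 0.0614 without control 2), Peg3 (0.0503 without control 1 and 0.0539 without control 2), Cd24a (0.0929 without control 1 and 0.0803 without control 2) and Zhx2 (0.0573 without control 1).

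**Figure D2:**
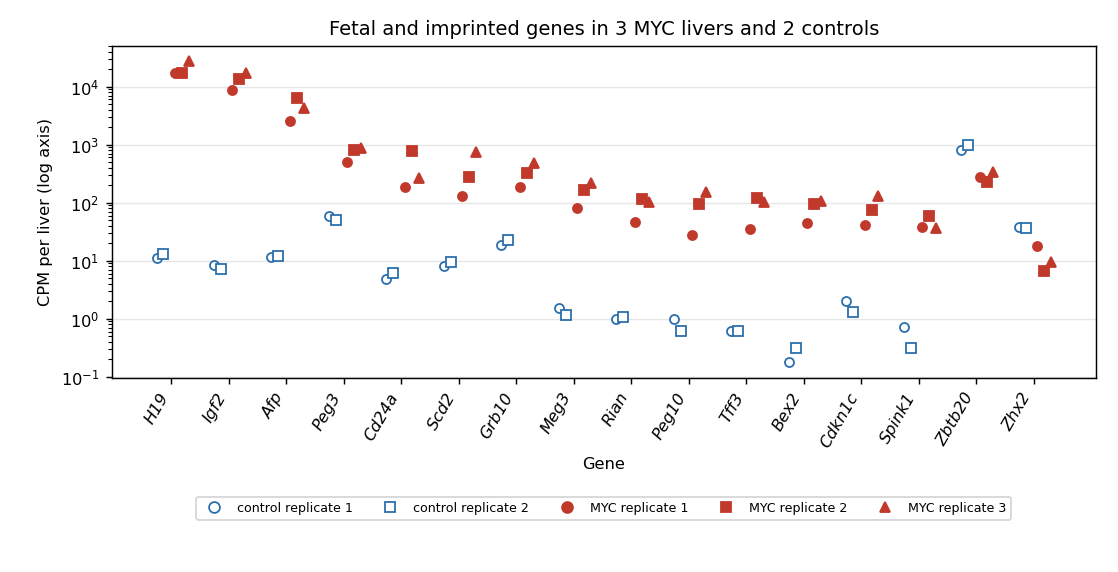
Normalised read counts (CPM, log axis) of 16 fetal or imprinted genes and their regulators in each of the 2 controls (open blue) and 3 MYC livers (filled red), with the replicate number given by the marker shape. From H19 to Spink1 every MYC liver lies above both controls, while for Zbtb20 and Zhx2 every MYC liver lies below them.

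Genes well known as direct MYC targets rose in part. Of 36 tested, 9 rose, 1 fell and 26 did not pass (9.76% of all genes rose), with a median log2 fold change of 0.27. By total counts 15 rose and 0 fell. Npm1, a nucleolar chaperone of ribosome assembly, was at 144 and 136 CPM in controls and 315, 344 and 259 CPM with MYC (1.13 ± 0.18, adjusted p = 0.00226). Dkc1, the pseudouridine synthase of ribosomal RNA, was at 26.6 and 25.1 CPM in controls and 50.3, 62.2 and 37.7 CPM with MYC (0.95 ± 0.20, adjusted p = 0.0088). Cdk4, the kinase of G1 phase, was at 19.9 and 20.2 CPM in controls and 41.3, 48.2 and 39.4 CPM with MYC (1.10 ± 0.24, adjusted p = 0.0107). Ncl, nucleolin, lay at 643, 624 and 513 CPM with MYC and 413 and 407 CPM in controls without passing (0.53 ± 0.18, adjusted p = 0.0556), as did Odc1, the first enzyme of polyamine synthesis, at 51.4, 103 and 52.1 CPM with MYC and 35.3 and 28.9 CPM in controls (1.10 ± 0.66, adjusted p = 0.284). Hspe1, the mitochondrial co-chaperonin, was the member that fell, from 247 and 272 to 204, 139 and 153 CPM (-0.65 ± 0.17, adjusted p = 0.0254). The rises numbered 4 without MYC 2, 2 without control 1 and 2 without control 2, and the adjusted p exceeded 0.05 for Dkc1 (0.073 without control 1 and 0.0871 without control 2), Cdk4 (0.096 without control 1 and 0.0868 without control 2) and Hspe1 (0.0897 without MYC 2, 0.0728 without MYC 3, 0.106 without control 1 and 0.166 without control 2).

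The E-box was looked for in RefSeq promoter windows of GRCm38.p6, each running from 250 bases before to 50 bases after a gene's start. Over all windows of RefSeq, which include genes not tested here, 7.15% held the letters CACGTG, which read the same on both strands. Only 11572 of the 17964 tested genes had a window, too few for a share over the tested genes. The letters were in 1376 of 14794 windows of tested genes, 141 of 1621 of genes that rose and 125 of 1492 of genes that fell. In the list of well-known targets 30 of 36 members had a window, and 12 of 38 windows held the letters (31.6%). This share covers the listed genes whether or not they rose. Among the members that rose only 6 of 9 had a window, too few for a share, and Cdk4 was the one with a match. Its window is printed 5′ to 3′ on the gene's strand (chr10:127063285-127063584, plus strand) because it carries 4 E-boxes, shown in capitals.
Cdk4: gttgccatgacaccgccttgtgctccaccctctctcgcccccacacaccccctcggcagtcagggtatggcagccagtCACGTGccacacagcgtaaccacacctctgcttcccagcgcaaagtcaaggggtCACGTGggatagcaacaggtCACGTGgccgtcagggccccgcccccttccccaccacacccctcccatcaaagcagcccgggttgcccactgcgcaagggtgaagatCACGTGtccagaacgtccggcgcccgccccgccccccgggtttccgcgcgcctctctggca
A match says only that the letters are present in the window.

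Ribosome genes differed by small amounts. Of 45 ribosomal protein genes 12 rose and none fell, with a median log2 fold change of 0.42, and by total counts 34 rose. Rps7 was at 112 and 118 CPM in controls and 235, 232 and 163 CPM with MYC (0.87 ± 0.19, adjusted p = 0.0112). Rpl5 was at 229 and 178 CPM in controls and 400.3, 401 and 305 CPM with MYC (0.86 ± 0.19, adjusted p = 0.0124). Such genes have many processed copies in the genome, so part of their reads may be assigned elsewhere. Of 53 genes for ribosome assembly 6 rose (11.3%), close to the 9.76% of all genes that rose, and by total counts 18 did. Nop56 of the box C/D complex was among the 6 (14.1 and 13.2 CPM in controls, 31.4, 33.7 and 20.1 CPM with MYC). The tested subunits and factors of RNA polymerase I (3 of 20 rose) and of RNA polymerase III (2 of 22) mostly did not pass, nor did translation factors (1 of 29) or aminoacyl-tRNA synthetases (2 of 22), where 9.76% of all genes rose. By total counts 8 of the translation factors and 8 of the synthetases rose. The ribosomal protein rises numbered 4 without MYC 2, 1 without control 1 and 0 without control 2, and those of ribosome assembly 2 without MYC 2, 1 without control 1 and 1 without control 2. For the genes named, the adjusted p exceeded 0.05 for Rps7 (0.11 without control 1 and 0.082 without control 2), Rpl5 (0.141 without control 2) and Nop56 (0.0614 without MYC 2, 0.112 without control 1 and 0.13 without control 2).

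The 3 enzymes of serine synthesis rose. Phgdh (ENSMUSG00000053398.11, chromosome 3, 98313170 to 98339990), its first enzyme, was at 0.619 and 1.09 CPM in the controls and 11.8, 24.2 and 46.95 CPM with MYC (4.99 ± 0.73, adjusted p = 0.00194). Psat1, the second, was at 6.01 and 6.16 CPM in controls and 61.8, 91.3 and 154 CPM with MYC (4.07 ± 0.62, adjusted p = 0.00279). Psph, the last, was at 6.19 and 8.73 CPM in controls and 14.5, 29.8 and 33.5 CPM with MYC (1.80 ± 0.47, adjusted p = 0.0229). For all 3 enzymes MYC 3 was the highest and replicate 1 the lowest. Mthfd1l, of the mitochondrial folate path, was at 3.54 and 4.68 CPM in controls and 18.2, 25.4 and 20.3 CPM with MYC (2.37 ± 0.38, adjusted p = 0.00231). Cbs, which draws serine into cysteine synthesis, fell from 287 and 338 to 169, 93.3 and 119 CPM (-1.30 ± 0.27, adjusted p = 0.00878). Over the 29 tested genes of serine, glycine and one-carbon metabolism 5 rose and 2 fell, and the rises were 3 without MYC 2, 3 without MYC 3, 3 without control 1 and 3 without control 2. The adjusted p exceeded 0.05 for Psph (0.0667 without MYC 2, 0.0644 without MYC 3, 0.189 without control 1 and 0.101 without control 2) and Cbs (0.0781 without control 2).

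Some amino acid carriers rose as well: 7 of 22 genes for amino acid transport and glutamine metabolism rose and 1 fell. The other 14 did not pass, and the median log2 fold change of the list was -0.23. Among all genes 9.76% rose and 8.56% fell. The falls in this list were 5 without MYC 1 and 4 in DESeq2. Slc38a1, a glutamine carrier, was at 2.47 and 2.495 CPM in controls and 19.9, 21.03 and 17.1 CPM with MYC (2.96 ± 0.31, adjusted p = 0.000325). Slc7a1, which carries arginine and lysine, was at 2.39 and 2.495 CPM in controls and 14.1, 26.01 and 15.5 CPM with MYC (2.92 ± 0.42, adjusted p = 0.00151). Slc7a5, the large neutral amino acid carrier, was at 4.77 and 5.07 CPM in controls and 16.7, 44.3 and 23.3 CPM with MYC (2.51 ± 0.43, adjusted p = 0.0032). Asns, asparagine synthetase, was at 3.54 and 7.33 CPM in controls and 47.2, 78.4 and 87.6 CPM with MYC (3.70 ± 0.56, adjusted p = 0.00243). In the opposite direction, Slc38a3, the glutamine carrier of adult hepatocytes, fell from 1152 and 1427 to 593, 152 and 101 CPM (-2.19 ± 0.62, adjusted p = 0.0357), least in MYC 1, and its adjusted p was 0.11 without MYC 2, 0.0636 without MYC 3, 0.122 without control 1 and 0.158 without control 2. Phgdh, Psat1, Asns, Slc7a1 and Slc7a5 also belong to the targets of the stress factor ATF4, of which 8 of 31 rose and 5 fell. The ATF4 target rises were 5 without control 1 and 5 without control 2, and the falls 3 without MYC 2, 3 without MYC 3, 2 without control 1 and 1 without control 2. Fgf21, a secreted ATF4 target of the liver, was among those that fell, from 21.2 and 18.9 to 0.536, 0.2804 and 0.05804 CPM (-6.07 ± 0.94, adjusted p = 0.00232).

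In nucleotide synthesis 9 of 33 genes rose and 2 fell. Ctps2, which makes CTP, was at 10.96 and 12.9 CPM in controls and 33.2, 48.2 and 75.9 CPM with MYC (2.13 ± 0.32, adjusted p = 0.00167). Rrm1, the large subunit of ribonucleotide reductase, was at 19.003 and 28.8 CPM in controls and 60.7, 147 and 68.9 CPM with MYC (1.95 ± 0.46, adjusted p = 0.0176), highest in MYC 2. Paics, of purine synthesis, fell from 243 and 224 to 148, 121 and 105 CPM (-0.91 ± 0.23, adjusted p = 0.0204). Cad, the entry enzyme of pyrimidine synthesis, lay at 58.1, 66.2 and 66.6 CPM with MYC and 36.4 and 36.5 CPM in controls (0.80 ± 0.32, adjusted p = 0.109). The rises in this list were 1 without control 1 and 1 without control 2, and the adjusted p exceeded 0.05 for Rrm1 (0.157 without control 1 and 0.0775 without control 2) and Paics (0.0671 without MYC 2, 0.0665 without MYC 3, 0.139 without control 1 and 0.0918 without control 2).

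In glucose metabolism some forms of adult liver fell and some other forms rose. Hk1 was at 7.601 and 7.095 CPM in controls and 42.4, 97.9 and 48.2 CPM with MYC (3.09 ± 0.40, adjusted p = 0.000937). Hk3 was at 2.21 and 3.197 CPM in controls and 10.8, 16.97 and 12.01 CPM with MYC (2.29 ± 0.34, adjusted p = 0.00163). Pfkp, the platelet form of phosphofructokinase, was at 3.27 and 2.18 CPM in controls and 18.2, 27.3 and 38.2 CPM with MYC (3.36 ± 0.47, adjusted p = 0.00142). Pkm, the muscle and proliferating-cell pyruvate kinase gene, rose from 19.4 and 26.04 to 82.1, 77.9 and 49.9 CPM (1.62 ± 0.25, adjusted p = 0.00191), and Pklr, the form of liver and red cells, fell from 244 and 236 to 112, 104 and 107 CPM (-1.15 ± 0.25, adjusted p = 0.0105). Among glycogen phosphorylases, Pygb, the brain form, was at 13.3 and 11.9 CPM in controls and 49.4, 75.4 and 137 CPM with MYC (2.79 ± 0.49, adjusted p = 0.00501). Pygl, the liver form, was at 681 and 600.1 CPM in controls and 389.8, 368 and 452 CPM with MYC (-0.67 ± 0.21, adjusted p = 0.0451). In every MYC liver Pklr still lay above Pkm and Pygl above Pygb. G6pdx, which opens the pentose phosphate path, was at 4.86 and 3.98 CPM in controls and 20.7, 31.8 and 27.6 CPM with MYC (2.59 ± 0.35, adjusted p = 0.00118), and Me1, malic enzyme, fell from 116 and 112 to 21.6, 13.8 and 16.4 CPM (-2.72 ± 0.32, adjusted p = 0.000628). Ldha, lactate dehydrogenase, lay at 495, 347 and 361 CPM with MYC and 735 and 693 CPM in controls (-0.83 ± 0.27, adjusted p = 0.0502). Over the whole list 7 of 33 glycolysis genes rose and 5 fell. The rises were 4 without control 2, and the falls 8 without MYC 1, 2 without MYC 2, 3 without MYC 3, 1 without control 1 and 0 without control 2 and 2 by total counts. The adjusted p exceeded 0.05 for Hk2 (0.0519 without control 2), Pklr (0.076 without control 1 and 0.0649 without control 2), Pygb (0.056 without control 1 and 0.0613 without control 2) and Pygl (0.0667 without MYC 1, 0.14 without MYC 2, 0.0591 without MYC 3, 0.259 without control 1 and 0.13 without control 2). Hexokinase 1 and 3 are also made by blood cells, whose markers rose as well, and their part in these values was not tested.

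**Figure D3:**
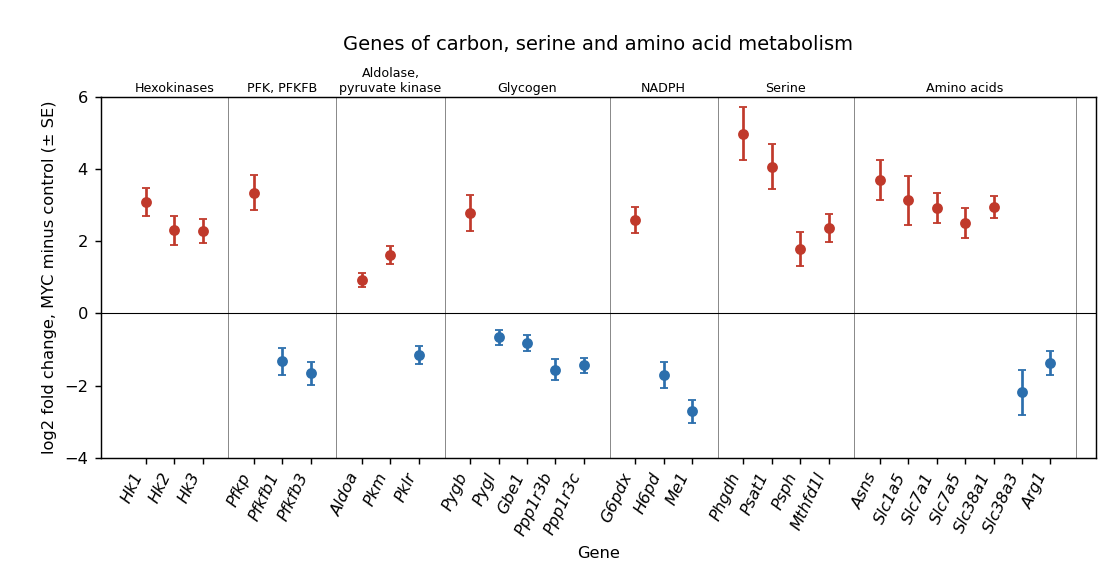
Log2 fold changes (MYC minus control, points, with SE bars) of 28 genes of glucose, glycogen, NADPH, serine and amino acid metabolism, grouped by pathway. Points above 0 are red and points below 0 blue, whether or not the gene passed. Hk1, Hk2 and Hk3 stand above 0, Pkm above Pklr, Pygb above Pygl, and the 4 serine and folate genes all above 0.

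Genes of the cell cycle rose. Of 44 DNA replication genes 28 rose, 1 fell and 15 did not pass, with a median log2 fold change of 1.83. Dnmt1, the maintenance DNA methyltransferase, was at 21.6 and 27.7 CPM in controls and 68.1, 135 and 79.98 CPM with MYC (1.94 ± 0.29, adjusted p = 0.00165). Orc1, a subunit of the origin recognition complex, was at 0.5303 and 0.858 CPM in controls and 5.96, 13.6 and 6.56 CPM with MYC (3.62 ± 0.54, adjusted p = 0.0022). Cdc6, which loads the helicase, was at 0.442 and 1.79 CPM in controls and 22.8, 50.7 and 19.04 CPM with MYC (4.75 ± 0.88, adjusted p = 0.00645). Mcm2, a subunit of that helicase, was at 7.25 and 12.7 CPM in controls and 44.7, 123 and 61.4 CPM with MYC (2.93 ± 0.60, adjusted p = 0.0102). Each was highest in MYC 2. Mcm10, a replication initiation factor, was the member that fell, from 84.7 and 58.7 to 15.9, 29.2 and 14.5 CPM (-1.85 ± 0.35, adjusted p = 0.00645). The rises numbered 16 without MYC 2, 3 without control 1 and 8 without control 2, and the adjusted p exceeded 0.05 for Cdc6 (0.073 without control 1), Mcm2 (0.11 without control 1 and 0.0599 without control 2) and Mcm10 (0.0723 without control 1).

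Of 40 mitosis genes 13 rose and none fell (median log2 fold change 2.24), with 29 in DESeq2, 27 by total counts, 24 in a fit of the 5 libraries alone and 5 without the filter on low counts. Mki67, the proliferation antigen Ki-67, was at 94.9 and 88.5 CPM in controls and 432, 1971 and 847 CPM with MYC (3.56 ± 0.88, adjusted p = 0.0228). Top2a, which untangles chromosomes, was at 15.4 and 24.3 CPM in controls and 81.4, 255 and 116 CPM with MYC (2.92 ± 0.73, adjusted p = 0.0236). Bub1b, of the spindle checkpoint, was at 4.42 and 3.898 CPM in controls and 15.01, 31.8 and 20.02 CPM with MYC (2.42 ± 0.49, adjusted p = 0.0078). The number that rose was 23 without MYC 1, 4 without MYC 2, 0 without control 1 and 1 without control 2, and the adjusted p exceeded 0.05 for Mki67 (0.0545 without MYC 2, 0.16 without control 1 and 0.155 without control 2), Top2a (0.0557 without MYC 2, 0.187 without control 1 and 0.117 without control 2) and Bub1b (0.0729 without control 1 and 0.0824 without control 2). In DNA repair 12 of 24 genes rose and none fell, such as Rad54l of homologous recombination, from 0.707 and 1.17 to 6.49, 14.7 and 10.3 CPM (3.46 ± 0.57, adjusted p = 0.00284), and the rises numbered 4 without MYC 2, 6 without MYC 3, 1 without control 1 and 1 without control 2.

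Erythroid markers were highest in the same liver as these genes. The sum of the 44 replication genes was 859.8, 1911 and 911 CPM in MYC 1, 2 and 3 and 356 and 453 CPM in the controls. The sum of the 40 mitosis genes was 1039.9, 3906 and 1762 CPM with MYC and 336 and 349 CPM in the controls. The sum of 8 erythroid markers, of which 5 rose, was 375, 2122 and 1044 CPM with MYC and 73.6 and 89.9 CPM in the controls, and none of these markers was at 0 in all livers. MYC 2 was the highest in all 3 sums. This liver was also the highest in the neutrophil, monocyte and T and NK cell marker sums. How far dividing blood precursors or hepatocytes make up the cell-cycle values was not tested.

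E2F proteins are the factors that drive replication genes at the start of S phase. The letters TTTGGCGC or TTTCCCGC, read on both strands and chosen after the rise of these genes was seen, were in 1.56% of all RefSeq windows. In the replication list 35 of 44 members had a window, and 15 of 43 windows held the letters. Since under 80% of the members were matched, the share is no check on the list. The windows of the 3 rising members with the smallest p among those with a match are printed 5′ to 3′ on the gene's strand, with the match in capitals: Dnmt1 (chr9:20952574-20952873, minus strand), Pola1, the catalytic subunit of DNA polymerase alpha (chrX:93632106-93632405, minus strand), and Cdc6 (chr11:98907901-98908200, plus strand).
Dnmt1: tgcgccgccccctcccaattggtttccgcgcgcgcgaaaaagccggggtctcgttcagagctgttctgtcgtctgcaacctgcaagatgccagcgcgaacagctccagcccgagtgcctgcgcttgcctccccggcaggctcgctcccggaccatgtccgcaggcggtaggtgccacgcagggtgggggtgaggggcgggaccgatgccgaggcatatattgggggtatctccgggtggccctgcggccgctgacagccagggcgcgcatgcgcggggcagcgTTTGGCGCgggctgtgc
Pola1: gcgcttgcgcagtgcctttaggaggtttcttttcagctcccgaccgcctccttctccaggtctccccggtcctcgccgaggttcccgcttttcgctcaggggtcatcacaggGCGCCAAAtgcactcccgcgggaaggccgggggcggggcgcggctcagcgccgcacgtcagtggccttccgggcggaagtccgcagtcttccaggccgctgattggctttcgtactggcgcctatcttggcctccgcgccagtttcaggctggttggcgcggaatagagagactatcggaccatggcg
Cdc6: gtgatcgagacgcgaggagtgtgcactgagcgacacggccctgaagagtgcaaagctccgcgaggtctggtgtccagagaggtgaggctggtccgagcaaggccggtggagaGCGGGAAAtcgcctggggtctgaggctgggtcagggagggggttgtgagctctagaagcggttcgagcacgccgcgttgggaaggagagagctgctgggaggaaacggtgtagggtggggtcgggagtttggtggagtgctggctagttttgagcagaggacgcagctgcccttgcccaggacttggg
Pola1 was at 10.9 and 13.3 CPM in controls and 29.96, 68.4 and 32.04 CPM with MYC (1.84 ± 0.33, adjusted p = 0.00465), and its adjusted p was 0.0644 without control 1.

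Among the G1 regulators 9 of 21 rose and 1 fell. Cdc25a, the phosphatase that activates CDK2, was at 7.51 and 6.39 CPM in controls and 25.3, 38.9 and 39.5 CPM with MYC (2.31 ± 0.27, adjusted p = 0.000575). Cyclin E1 (Ccne1) was at 2.74 and 3.74 CPM in controls and 12.5, 36.9 and 19.9 CPM with MYC (2.83 ± 0.50, adjusted p = 0.00397), and cyclin D3 (Ccnd3) was at 22.9 and 20.5 CPM in controls and 68.2, 106 and 58.3 CPM with MYC (1.84 ± 0.41, adjusted p = 0.0141). Skp2, the ubiquitin ligase subunit that degrades p27, was at 3.45 and 4.29 CPM in controls and 10.7, 15.1 and 21.3 CPM with MYC (2.02 ± 0.34, adjusted p = 0.00321). Cyclin D1 (Ccnd1) went the other way, from 66.997 and 121 to 28.8, 10.8 and 12.6 CPM (-2.43 ± 0.68, adjusted p = 0.0374). The other members that rose were Cdk4, Ccne2, E2f2, E2f4 and E2f7, at log2 fold changes of 1.10, 2.06, 3.28, 1.42 and 2.30. Cdk2, Cdk6, E2f1, E2f3 and Rb1 were among those that did not pass. The rises numbered 1 without control 1 and 5 without control 2, and the adjusted p exceeded 0.05 for Ccne1 (0.0605 without control 1), Ccnd3 (0.1 without control 1 and 0.114 without control 2), Skp2 (0.052 without control 1) and Ccnd1 (0.118 without MYC 2, 0.0985 without MYC 3, 0.0949 without control 1 and 0.208 without control 2). The same held for Ccne2 (0.0964 without MYC 2, 0.052 without MYC 3, 0.225 without control 1 and 0.147 without control 2), E2f2 (0.0819 without control 1), E2f4 (0.0508 without control 1) and E2f7 (0.133 without MYC 2, 0.079 without MYC 3, 0.239 without control 1 and 0.174 without control 2).

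Of 7 tested inhibitors of cyclin-dependent kinases 2 rose and 5 did not pass, and the rises were 5 without MYC 1, 4 in DESeq2 and 5 by total counts. Cdkn1c (ENSMUSG00000037664.13, chromosome 7, 143458339 to 143461050), the imprinted inhibitor p57, was at 2.03 and 1.33 CPM in controls and 40.97, 76.2 and 129 CPM with MYC (5.62 ± 0.59, adjusted p = 0.000505). Cdkn1a, the inhibitor p21, was at 11.8 and 7.41 CPM in controls and 26.98, 38.98 and 54.3 CPM with MYC (2.07 ± 0.33, adjusted p = 0.00245). Both calls were kept without each of the 5 livers. Cdkn1b, the inhibitor p27, lay at 45.1, 67.02 and 61.3 CPM with MYC and 39.1 and 38.9 CPM in controls (0.57 ± 0.21, adjusted p = 0.0789). Cdkn2a, which encodes ARF and p16, did not reach the counts needed for a test, and Cdkn2b lay under 0.18 CPM in all 5 livers.

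Genes of the p53 pathway split: 7 of 31 tested genes rose and 4 fell. Trp53 was at 23.7 and 22.4 CPM in controls and 40.3, 42.9 and 36.4 CPM with MYC (0.79 ± 0.21, adjusted p = 0.0247). Apaf1, of the apoptosome, was at 6.89 and 4.91 CPM in controls and 11.7, 19.8 and 21.7 CPM with MYC (1.59 ± 0.29, adjusted p = 0.00447). Bak1, Bcl2l11, Pmaip1 and Gtse1 were the other members that rose beside Cdkn1a. Gdf15 fell from 20.3 and 29.5 to 5.36, 8.41 and 10.9 CPM (-1.60 ± 0.35, adjusted p = 0.0107), and Ei24, Plk2 and Plk3 fell too. Mdm2, a p53 target that degrades p53, lay at 31.8, 51.7 and 54.9 CPM with MYC and 36.8 and 39.1 CPM in controls (0.28 ± 0.27, adjusted p = 0.505). Bax was at 16.3, 15.2 and 16.5 CPM with MYC and 13.5 and 12.5 CPM in controls (0.30 ± 0.18, adjusted p = 0.264). The adjusted p exceeded 0.05 for Trp53 (0.0725 without MYC 2, 0.136 without control 1 and 0.158 without control 2), Apaf1 (0.0658 without control 2) and Gdf15 (0.115 without control 2). It also did for Bak1 (0.0923 without control 1 and 0.101 without control 2), Bcl2l11 (0.0892 without MYC 2, 0.0708 without MYC 3, 0.225 without control 1 and 0.141 without control 2), Pmaip1 (0.0665 without MYC 2, 0.101 without control 1 and 0.174 without control 2), Gtse1 (0.0645 without MYC 2, 0.14 without control 1 and 0.129 without control 2), Ei24 (0.0565 without MYC 2 and 0.151 without control 1), Plk2 (0.0554 without MYC 2, 0.0528 without MYC 3, 0.147 without control 1 and 0.087 without control 2) and Plk3 (0.0768 without MYC 2, 0.0953 without MYC 3, 0.25 without control 1 and 0.0793 without control 2). The rises numbered 3 without MYC 2, 2 without control 1 and 1 without control 2 and 11 by total counts, and the falls 1 without MYC 2, 1 without control 1 and 1 without control 2 and 2 by total counts.

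Genes of red cell precursors were among the largest rises of all. Of 22 erythroid genes tested 16 rose and none fell, but members with no counts in the controls could not have fallen. Gata1 (ENSMUSG00000031162.14, chromosome X, 7959260 to 7978071), the master factor of the erythroid lineage, had no counts in the controls and 10.7, 29.7 and 14.5 CPM in the MYC livers, at least 73.2-fold higher. Rhag and Rhd, of the Rh complex of the red cell membrane, also had none in the controls and 17.1, 69.8 and 26.4 CPM and 13.3, 68.98 and 30.4 CPM with MYC, each at least 151-fold higher. Slc14a1, the urea carrier of red cells, was at 19.1, 62.7 and 22.8 CPM with MYC and 0 in the controls (at least 139.7-fold higher). In each of these 4 genes MYC 2 was the highest and replicate 1 the lowest. Ank1, which anchors the membrane skeleton, was at 0.5303 and 1.17 CPM in controls and 63.5, 259.9 and 134 CPM with MYC (7.45 ± 0.83, adjusted p = 0.000814). Klf1 was at 2.65 and 1.25 CPM in controls and 34.2, 98.8 and 36.6 CPM with MYC (4.86 ± 0.65, adjusted p = 0.00148). Tfrc, the transferrin receptor and a MYC target as well, was at 21.6 and 26.1 CPM in controls and 191, 459.7 and 187 CPM with MYC (3.55 ± 0.52, adjusted p = 0.00219). Globins did not pass: Hbb-bs lay at 42.4, 266 and 149 CPM with MYC and 29.3 and 39.5 CPM in controls (2.14 ± 0.82, adjusted p = 0.103), and its near-identical copy Hbb-bt at 41.7, 299 and 111 CPM with MYC and 28.9 and 37.2 CPM in controls (2.19 ± 1.14, adjusted p = 0.219). Embryonic globins did not reach the counts needed for a test. The rises numbered 9 without control 1 and 9 without control 2, and the calls of Gata1, Rhag, Rhd, Slc14a1, Ank1, Klf1 and Tfrc were kept in every such fit.

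Granulocyte genes rose too, with a list median log2 fold change of 7.60 (5.42 with members that had no counts in the controls set to their bound). Of 17 genes 15 rose, and all 8 neutrophil markers did. The sum of these markers was 923, 1545 and 789.6 CPM with MYC and 4.33 and 4.05 CPM in the controls. Members with almost no counts in the controls, such as Ctsg and Elane, could not have fallen. S100a8, a calcium-binding protein of neutrophils, was at 1.24 and 2.11 CPM in controls and 331, 564 and 266 CPM with MYC (7.84 ± 1.23, adjusted p = 0.00374). Genes of the primary granules, which are made in precursors in the blood-forming tissue, were among them: Ctsg had no counts in the controls and 9.47, 13.3 and 9.23 CPM with MYC (at least 42.8-fold higher), Elane with 1 count in the controls was 694-fold (95% counting interval 124 to 27447) higher, and Prtn3 was at 0.707 and 1.25 CPM in controls and 14.6, 24.2 and 13.3 CPM with MYC (4.13 ± 0.63, adjusted p = 0.00196). Ngp, of the secondary granules, was at 0.354 and 0.312 CPM in controls and 105, 165 and 108 CPM with MYC (8.53 ± 1.71, adjusted p = 0.0131). The rises were 4 without control 1 and 5 without control 2, and the adjusted p exceeded 0.05 for S100a8 (0.0602 without control 1 and 0.05001 without control 2) and Ngp (0.122 without control 1 and 0.117 without control 2).

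**Figure D4:**
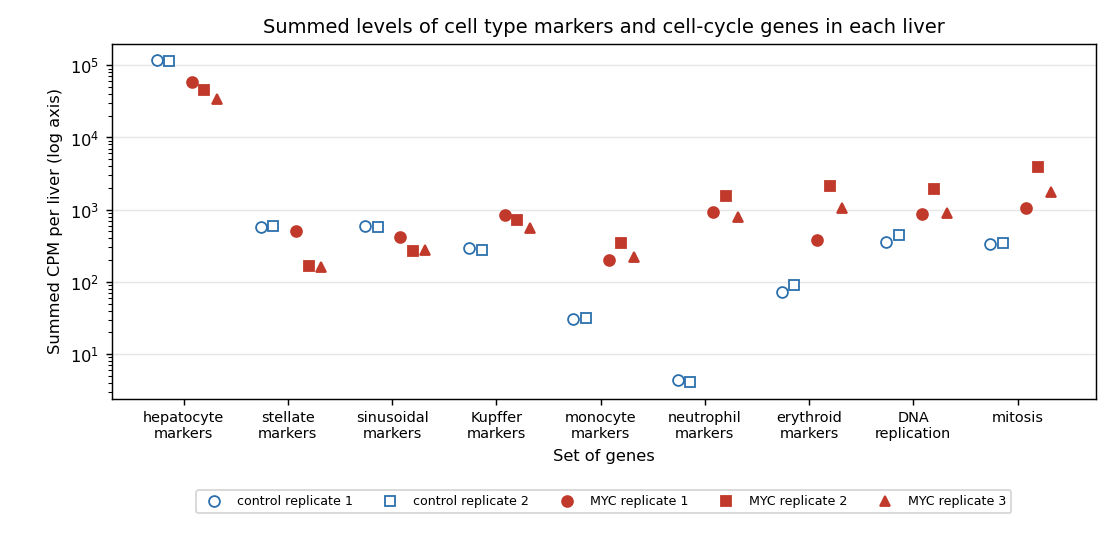
Summed CPM (log axis) of marker genes of liver and blood cell types and of the replication and mitosis lists in each control (open blue) and each MYC liver (filled red), with the replicate number given by the marker shape. Neutrophil sums lie near 4 CPM in controls and between 789.6 and 1545 CPM with MYC. MYC 2 is the highest in the monocyte, neutrophil, erythroid, replication and mitosis sums.

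Macrophage genes rose as well. Of 18 monocyte and macrophage genes 10 rose and 1 fell. The rises were 5 without control 2. Lyz2, lysozyme, was at 20.7 and 21.4 CPM in controls and 98.98, 161 and 133 CPM with MYC (2.64 ± 0.23, adjusted p = 0.000164). Cd68 was at 8.75 and 10.1 CPM in controls and 44.4, 55.3 and 48.3 CPM with MYC (2.39 ± 0.30, adjusted p = 0.000817). Itgam, the integrin CD11b, was at 3.01 and 2.34 CPM in controls and 14.9, 24.7 and 19.2 CPM with MYC (2.87 ± 0.35, adjusted p = 0.000661). Lyz2 and Itgam are also made by granulocytes, whose part was not tested. Among Kupffer cell genes 4 of 16 rose and 1 fell. C1qc, a subunit of complement C1q, rose from 20.9 and 20.04 to 63.6, 83.4 and 55.02 CPM (1.72 ± 0.36, adjusted p = 0.00924). The summed T and NK cell markers were at 11.6, 22.6 and 12.7 CPM in the MYC livers and 7.07 and 7.49 CPM in the controls, so every MYC liver lay above both controls, and none of these markers passed. Over the longer T and NK cell list 1 of 12 rose. The summed B cell markers were at 13.7, 14.1 and 11.9 CPM with MYC and 12.6 and 9.75 CPM in controls, with overlapping groups and none passing. The Kupffer rises were 0 without control 1 and 0 without control 2, and the adjusted p of C1qc was 0.0815 without control 1 and 0.0853 without control 2.

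Of 25 interferon-response genes 15 rose and none fell. Usp18, which removes ISG15 and dampens the response, was at 5.39 and 3.74 CPM in controls and 27.6, 26.1 and 24.3 CPM with MYC (2.51 ± 0.29, adjusted p = 0.000552), and it kept its call without each liver. Irf7, an interferon regulatory factor, was at 7.95 and 8.73 CPM in controls and 47.9, 44.5 and 25.7 CPM with MYC (2.24 ± 0.43, adjusted p = 0.00668), lowest among MYC livers in replicate 3. Rises numbered 7 without MYC 2, 2 without control 1 and 1 without control 2, and the adjusted p of Irf7 was 0.0753 without control 1 and 0.063 without control 2. Of 19 genes of antigen presentation none rose and 2 fell, where 9.76% and 8.56% of all genes did.

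Hepatocyte markers were lower with MYC. The sum of 10 such markers, of which 5 fell, was 58808, 45914 and 34019 CPM with MYC and 118878 and 114686 CPM in the controls. Alb (ENSMUSG00000029368.10, chromosome 5, 90460897 to 90476602), serum albumin, was at 65515 and 67979 CPM in controls and 29474, 22075 and 11948 CPM with MYC (-1.66 ± 0.47, adjusted p = 0.032). Its share of all counts was 5.20 and 5.67% in controls and 2.80, 2.52 and 1.39% with MYC. The stellate cell sum was 503, 166 and 160.1 CPM with MYC and 567 and 601 CPM in controls. None of its 7 markers passed. The sinusoidal sum was 416, 271 and 281 CPM with MYC and 596 and 579 CPM in controls, and 1 of its 8 markers fell. For the stellate and sinusoidal sums MYC 1 was the closest to the controls. Cholangiocyte markers stayed at 39.96, 45.8 and 57.4 CPM with MYC against 42.4 and 45.8 CPM. The adjusted p of Alb was 0.0927 without MYC 2, 0.0918 without MYC 3, 0.136 without control 1 and 0.136 without control 2.

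Of 34 hepatocyte transcription factors 13 fell and none rose (8 fell and 2 rose by total counts). Hnf4a, the central factor of hepatocyte identity, fell from 673 and 655 to 413, 315 and 367 CPM (-0.86 ± 0.23, adjusted p = 0.024). Cebpa fell from 333 and 325 to 183, 128 and 171 CPM (-1.03 ± 0.21, adjusted p = 0.00773). Cebpb, the gene of LAP whose promoter drives tTA in these mice, fell from 116 and 107 to 67.2, 22.7 and 26.9 CPM (-1.51 ± 0.38, adjusted p = 0.0209), least in MYC 1. Ppara, the sensor of fatty acids, fell from 163 and 163 to 85.3, 54.8 and 53.05 CPM (-1.34 ± 0.24, adjusted p = 0.00379). Tbx3, a pericentral factor, fell from 33.9 and 46.9 to 9.17, 2.38 and 3.25 CPM (-3.02 ± 0.49, adjusted p = 0.0032). The falls numbered 7 without MYC 2, 3 without control 1 and 6 without control 2, and the adjusted p exceeded 0.05 for Hnf4a (0.0903 without MYC 2, 0.0609 without MYC 3, 0.139 without control 1 and 0.116 without control 2), Cebpa (0.0643 without control 1 and 0.055 without control 2) and Cebpb (0.0537 without MYC 2, 0.0614 without MYC 3, 0.121 without control 1 and 0.0927 without control 2).

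Secreted hepatocyte proteins did not all move alike. Among plasma proteins 8 of 34 fell, and among coagulation and complement genes 11 of 38. By total counts 5 plasma protein genes fell, and 5 coagulation and complement genes fell and 2 rose. C9, the pore-forming component of complement, fell from 1508 and 1331 to 77.5, 25.6 and 26.4 CPM (-5.04 ± 0.50, adjusted p = 0.00028). Serpina3k, a serine protease inhibitor, fell from 9955 and 8604 to 607, 74.8 and 131 CPM (-5.10 ± 0.78, adjusted p = 0.00262), and it is one of a set of near-identical copies among which reads may be split. Fga, the alpha chain of fibrinogen, fell from 9697 and 7192 to 4228, 4124 and 2963 CPM (-1.16 ± 0.28, adjusted p = 0.0158). Of the 31 tested acute phase genes 6 fell and 4 rose, and the falls were 10 without MYC 1, 2 without MYC 3, 1 without control 1 and 2 without control 2 and 2 by total counts. Lbp, which binds bacterial lipopolysaccharide, and both metallothioneins were among those that rose: Lbp was at 89.98 and 74.7 CPM in controls and 261, 269 and 156 CPM with MYC (1.47 ± 0.24, adjusted p = 0.00245). Mt1 was at 27.1 and 13.1 CPM in controls and 249, 301 and 150.5 CPM with MYC (3.54 ± 0.52, adjusted p = 0.002) and Mt2 at 6.19 and 2.26 CPM in controls and 90.1, 110.2 and 49.97 CPM with MYC (4.31 ± 0.63, adjusted p = 0.00222). Saa1, serum amyloid A, lay at 9.05, 2.45 and 0.813 CPM with MYC and 71.8 and 38.05 CPM in controls (-3.73 ± 1.40, adjusted p = 0.0964). The plasma protein falls numbered 19 without MYC 1, 0 without MYC 2, 0 without MYC 3, 0 without control 1 and 0 without control 2 and those of coagulation and complement 17 without MYC 1, 5 without MYC 2, 6 without MYC 3, 2 without control 1 and 2 without control 2, and the adjusted p of Fga was 0.0528 without MYC 3, 0.156 without control 1 and 0.0504 without control 2.

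Genes of lipid synthesis fell. Of 26 genes of cholesterol synthesis and its control 16 fell and none rose, with a median log2 fold change of -1.30. Insig1 (chromosome 5, 28071363 to 28078662), which holds SREBP in the endoplasmic reticulum and is itself an SREBP target, fell from 305 and 465 to 69.8, 73.96 and 71.4 CPM (-2.43 ± 0.37, adjusted p = 0.00201). Sc5d fell from 482 and 621 to 138, 103 and 125 CPM (-2.17 ± 0.29, adjusted p = 0.00106) and Msmo1 from 102 and 131 to 22.5, 25.5 and 26.5 CPM (-2.22 ± 0.28, adjusted p = 0.000731), both enzymes of the last steps to cholesterol. Srebf2, the factor that drives the path, was at 72.9, 70.5 and 78.99 CPM with MYC and 64.4 and 78.1 CPM in controls (0.06 ± 0.16, adjusted p = 0.85). The falls numbered 7 without control 2.

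Of 29 genes of fatty acid and triglyceride synthesis 17 fell and none rose (10 fell and 1 rose by total counts). Scd1 (ENSMUSG00000037071.3, chromosome 19, 44394455 to 44407879), the desaturase of adult liver, fell from 5000.4 and 5860.3 to 111, 199 and 380.0 CPM (-4.56 ± 1.02, adjusted p = 0.0153). Elovl5, an elongase of polyunsaturated fatty acids, fell from 935 and 971 to 166, 108 and 152 CPM (-2.75 ± 0.27, adjusted p = 0.000271), and its partners Fads1 and Fads2, the delta desaturases, from 944 and 1032 to 230.2, 69.3 and 68.9 CPM (-3.01 ± 0.46, adjusted p = 0.00219) and from 706 and 895 to 181, 84.3 and 86.7 CPM (-2.77 ± 0.36, adjusted p = 0.00105). Fasn, fatty acid synthase, fell from 1219.8 and 1482 to 239, 297 and 583 CPM (-1.86 ± 0.49, adjusted p = 0.0254). Srebf1, the factor of this path, lay at 220.1, 162 and 183 CPM with MYC and 175 and 220.4 CPM in controls (-0.07 ± 0.26, adjusted p = 0.891). The falls numbered 7 without MYC 2, 6 without control 1 and 6 without control 2, and the adjusted p exceeded 0.05 for Scd1 (0.0576 without MYC 2, 0.0674 without control 1 and 0.0722 without control 2) and Fasn (0.0533 without MYC 1, 0.0915 without MYC 2, 0.0987 without control 1 and 0.135 without control 2).

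Fatty acid oxidation changed less evenly, with 6 of 37 genes falling and 2 rising. Acsl1, which activates long-chain fatty acids, fell from 1991 and 1673 to 652, 556 and 804 CPM (-1.45 ± 0.22, adjusted p = 0.00178). Acot2, a mitochondrial thioesterase, was at 2.65 and 2.57 CPM in controls and 19.1, 13.7 and 18.5 CPM with MYC (2.71 ± 0.36, adjusted p = 0.00108). In bile acid synthesis 6 of 17 fell and none rose, among them Scp2, of peroxisomal side-chain shortening, from 3752 and 3304 to 870.1, 526 and 631 CPM (-2.38 ± 0.28, adjusted p = 0.000552). Cyp7a1, the rate-limiting enzyme of bile acid synthesis, lay at 243, 179 and 253 CPM with MYC and 164 and 95.8 CPM in controls (0.79 ± 1.38, adjusted p = 0.745). The falls were 19 without MYC 1 and 3 without control 1 for oxidation and 12 without MYC 1, 3 without MYC 2, 2 without control 1 and 2 without control 2 for bile acid synthesis. Mitochondrially encoded genes (0 of 13) and nuclear genes of oxidative phosphorylation (1 rose and 1 fell of 35) are both under the 9.76% rising and 8.56% falling among all genes.

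Detoxification genes fell in part. Of 37 genes of the oxidising phase 13 fell and none rose, and of 36 of the conjugating phase 11 fell and 2 rose. Ces3b, a carboxylesterase, fell from 383 and 382 to 5.3003, 0.561 and 4.47 CPM (-6.78 ± 0.84, adjusted p = 0.00139), and Mgst3, a microsomal glutathione transferase, rose from 5.13 and 2.42 to 31.6, 45.1 and 28.2 CPM (3.22 ± 0.35, adjusted p = 0.000411). Several well-known P450 genes varied widely among the MYC livers: Cyp2e1 lay at 2974, 235 and 116 CPM with MYC and 5502 and 4419.9 CPM in controls (-2.16 ± 1.65, adjusted p = 0.41). Cyp1a2 was at 388, 27.6 and 24.1 CPM with MYC and 655 and 674 CPM in controls (-2.18 ± 1.33, adjusted p = 0.292). In both genes MYC 1 lay closer to the controls than to the other MYC livers. Cyp2e1 and Cyp1a2 are pericentral genes, as are Cldn2, a tight junction protein that fell from 70.2 and 94.97 to 19.2, 10.1 and 16.4 CPM (-2.43 ± 0.27, adjusted p = 0.000463), and Tbx3. Over the pericentral list 10 of 34 fell, and the falls were 19 without MYC 1, 3 without MYC 2, 4 without MYC 3, 3 without control 1 and 2 without control 2 and 6 by total counts. Over the periportal list 4 of 33 fell and 2 rose, where 8.56% of all genes fell and 9.76% rose. The periportal falls were 14 without MYC 1 and fewer without control 1. Falls numbered 20 without MYC 1, 5 without MYC 2, 5 without MYC 3, 2 without control 1 and 4 without control 2 for the oxidising phase and 21 without MYC 1, 5 without MYC 2, 7 without MYC 3, 2 without control 1 and 2 without control 2 for the conjugating phase.

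Male-biased liver genes fell. The male pattern of the liver comes up at puberty under pulsed growth hormone, acting through STAT5B. Of 26 such genes tested 19 fell and 1 rose, with a median log2 fold change of -3.74. Hsd3b5 (ENSMUSG00000038092.6, chromosome 3, 98618634 to 98630252), a steroid-metabolising enzyme, fell from 99.2 and 119 to 0.298, 0.421 and 0.5804 CPM (-7.94 ± 0.52, adjusted p = 7.49e-05). Nudt7, a peroxisomal CoA hydrolase, fell from 543 and 621 to 45.3, 27.3 and 40.5 CPM (-3.95 ± 0.28, adjusted p = 7.49e-05). Elovl3, an elongase of very long fatty acids, was at 54.2 and 84.8 CPM in controls and had 2 counts in the 3 MYC livers together, 1701-fold (95% counting interval 470.2 to 14059) lower. Mup genes, which encode the urinary pheromone carriers, were among the largest falls: Mup3 was at 1347 and 1756 CPM in controls and 4.23, 1.61 and 4.88 CPM with MYC (-8.75 ± 1.12, adjusted p = 0.00151), and Mup9 and Mup18 had no counts with MYC, at least 439-fold and 409.8-fold lower. These genes are near-identical copies, so a read's assignment to any of them is uncertain. The falls numbered 12 without control 1 and 12 without control 2.

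The male-biased member that rose was Cyp4a12b, nearly identical in sequence to its neighbour Cyp4a12a, from 5.39 and 4.52 to 25.6, 45.1 and 54.2 CPM (3.07 ± 0.54, adjusted p = 0.005). Female-biased genes rose in 10 of 29 cases and fell in none. Cux2, a transcription factor of female liver, was at 1.06 and 1.01 CPM in controls and 24.4, 27.6 and 13.9 CPM with MYC (4.39 ± 0.63, adjusted p = 0.00196). Cyp3a16 was at 1.15 and 0.7797 CPM in controls and 67.2, 98.7 and 35.8 CPM with MYC (6.12 ± 0.69, adjusted p = 0.000592). Ghr, the growth hormone receptor, fell from 800.0 and 763 to 265, 181 and 229 CPM (-1.80 ± 0.30, adjusted p = 0.00316), and Socs2, a STAT5 target, fell from 37.03 and 37.2 to 7.62, 3.01 and 10.5 CPM (-2.39 ± 0.45, adjusted p = 0.00645). Igf1, the growth hormone-dependent growth factor, fell from 1613 and 1867 to 497, 373 and 261 CPM (-2.21 ± 0.29, adjusted p = 0.00106). Among the 22 genes of the IGF and growth hormone axis 6 fell and 2 rose, Igf2 and the receptor Igf1r. The falls were 3 without MYC 2, 3 without MYC 3, 3 without control 1 and 3 without control 2. Igf1r was at 8.22 and 11.1 CPM in controls and 15.5, 17.5 and 15.6 CPM with MYC (0.74 ± 0.21, adjusted p = 0.0317), and its adjusted p was 0.0906 without MYC 2, 0.0558 without MYC 3, 0.276 without control 1 and 0.0737 without control 2. Stat5b lay at 66.04, 61.3 and 75.5 CPM with MYC and 99.8 and 82.1 CPM in controls (-0.43 ± 0.15, adjusted p = 0.0652). Female-biased rises numbered 5 without control 1 and 3 without control 2, and the adjusted p of Cyp4a12b was 0.0601 without control 1 and 0.0682 without control 2.

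In amino acid breakdown and the urea cycle 7 of 45 genes fell and none rose, where 8.56% of all genes fell and 9.76% rose. Kmo, of tryptophan breakdown, fell from 245 and 214 to 85.3, 35.6 and 37.5 CPM (-2.12 ± 0.39, adjusted p = 0.0054). Cps1, the entry enzyme of the urea cycle, lay at 2943, 1650.4 and 2168 CPM with MYC and 3544 and 4151 CPM in controls (-0.77 ± 0.32, adjusted p = 0.118). Of 20 carriers of bile acids and organic ions 7 fell and 3 rose. Slc22a7, an organic anion carrier, fell from 151 and 167 to 13.2, 1.26 and 3.77 CPM (-4.70 ± 0.83, adjusted p = 0.0062), and Abcc4, an export pump that adult hepatocytes express little, rose from 3.62 and 3.35 to 15.2, 23.98 and 18.2 CPM (2.45 ± 0.36, adjusted p = 0.00157). Abcb11, the bile salt export pump, lay at 715, 577 and 709.6 CPM with MYC and 563 and 499 CPM in controls (0.33 ± 0.40, adjusted p = 0.618). Falls in amino acid breakdown numbered 26 without MYC 1, 2 without MYC 2, 3 without MYC 3, 2 without control 1 and 1 without control 2, and those among carriers 3 without MYC 2, 2 without control 1 and 3 without control 2.

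Of 31 growth factors and receptors 13 fell and 2 rose. By total counts 8 fell and 5 rose. Egfr (ENSMUSG00000020122.16, chromosome 11, 16752203 to 16918158), the epidermal growth factor receptor, which is abundant in adult hepatocytes, fell from 1929 and 2787 to 154, 109 and 121 CPM (-4.20 ± 0.68, adjusted p = 0.00329). Tgfb1, a transforming growth factor of immune and stromal cells, was at 13.1 and 15.7 CPM in controls and 43.9, 40.3 and 28.1 CPM with MYC (1.38 ± 0.22, adjusted p = 0.00239), and Tgfbr2, its receptor, was the other that rose (adjusted p = 0.062 without MYC 2, 0.0815 without control 1 and 0.158 without control 2). The falls were 7 without MYC 2, 5 without control 1 and 4 without control 2. The calls of Egfr, Tgfb1, Igf1, Ghr and Socs2 were kept without each liver. Among targets of the Hippo effector YAP 3 of 25 fell and 1 rose, where 8.56% of all genes fell and 9.76% rose. The falls were 6 without MYC 1, and the rises 3 without MYC 1 and 6 by total counts. Cyr61, a matricellular protein, fell from 28.5 and 18.3 to 2.74, 1.61 and 2.55 CPM (-3.33 ± 0.35, adjusted p = 0.000428).

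**Figure D5:**
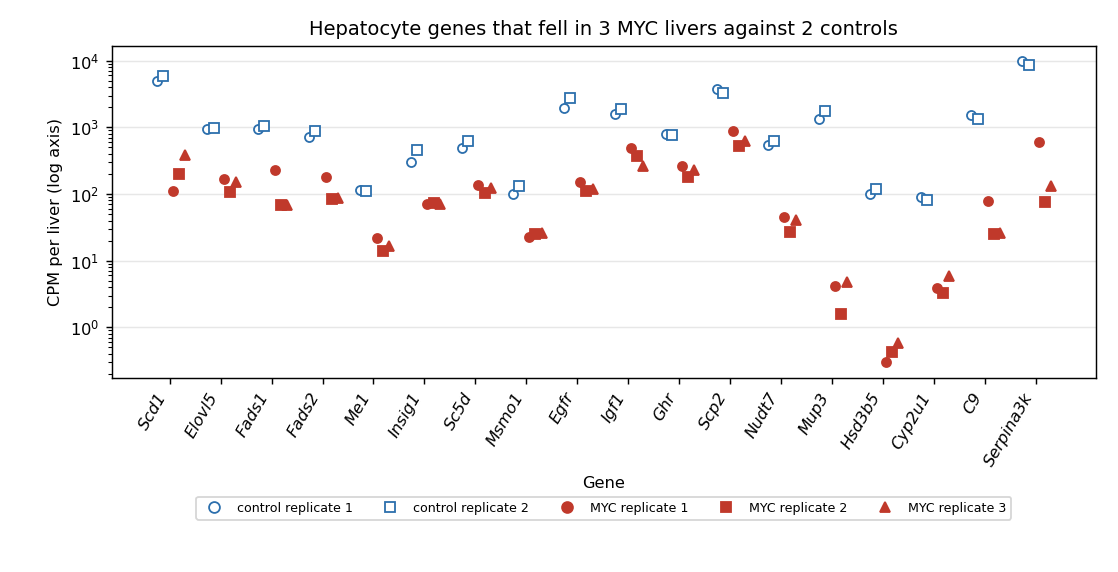
Normalised read counts (CPM, log axis) of 18 hepatocyte genes that fell, in each of the 2 controls (open blue) and 3 MYC livers (filled red), with the replicate number given by the marker shape. For every gene all MYC livers lie below both controls, by the widest margin in Hsd3b5 and Mup3.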

How the data were processed

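The authors deposited raw read counts per gene symbol for 12 mouse liver RNA-seq libraries, of which the 3 MYC and 2 control libraries (12511170 to 17690798 counts each) are described here. Per the submitters' processing notes, Trim Galore 0.4.1, HISAT2 2.1.0, featureCounts 1.6.3 and DESeq2 1.20.0 and the mouse build GRCm38/mm10 were used. The strand setting, the annotation release and the treatment of reads that match several places are not given in the sources used here. Of 48576 symbols 46271 matched 1 gene of GENCODE vM21, whose GRCm38 coordinates are printed, and 27 symbols turned into spreadsheet dates (at most 0.159% of counts) were not named.

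The test was run in edgeR 4.0.16 under R 4.3.3 with filterByExpr by group, TMM scaling, a robust quasi-likelihood fit of 1 mean per group over all 12 libraries (7 residual degrees of freedom, so the other groups share the estimate of the spread), and Benjamini-Hochberg adjustment over 17964 genes. The biological coefficient of variation was 31.5%. Each SE is the absolute log2 fold change divided by the square root of the test's F statistic. The test was also run on simulated counts with set fold changes. CPM use TMM-scaled totals. A gene with no counts in a group has a fold against 3 counts per library, and one with 1 to 3 counts in a group a ratio with an exact 95% interval, both of which cover counting error only. Named were the 12 largest rises and falls (called, no overlap, a mean of at least 10 CPM in the higher group, named genes), up to 6 members with the smallest p of each of 74 lists, and list members where a list is accounted for. The members and lists were chosen with earlier results of these data known. Promoter windows come from RefSeq. Alternatives were total-count scaling, DESeq2 1.42.0, no filter, the 5 libraries alone, a replicate block and leaving out each library. Summaries and figures used Python 3.11.15, pandas 2.3.3, SciPy 1.17.1 and matplotlib 3.10.9.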

Additional observations from a re-analysis of the deposited data

How the results depend on the processing

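The 3291 changed genes (1754 that rose and 1537 that fell) became 4087 with DESeq2 (2239 and 1848), 3010 with the 5 libraries alone (1762 and 1248), 2991 without the filter on low counts (1615 and 1376) and 4020 by total counts, where the split moved to 3277 that rose and 743 that fell. Leaving out 1 library gave 792 to 4192 changed genes, 387 to 2033 that rose and 405 to 2159 that fell. The lowest numbers came without a control, where the lone control is assumed to vary like the other groups and 752 (without control 1) and 856 (without control 2) of the 3291 genes kept their call. At this depth, genes below the filter on low counts could not be tested.

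With the replicate number as a block, 2136 genes changed (1204 that rose and 932 that fell). The numbers are not taken as pairing, since the labels tie them to no litter or day. The deviations of same-numbered MYC and control libraries correlated at 0.082 and 0.020, both under 0.1. With only 2 controls their deviations mirror each other, so these values cannot exclude pairing.

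Of 194 genes in the text, 18 lost their call under the block, 12 without the filter on low counts and 10 by total counts. Without MYC 1, 2 or 3 the losses were 2, 28 and 16. The most calls were lost without a control, where a lone control is left. No gene changed direction with DESeq2, the 5 libraries alone, no filter or the block. Direction turned, never at an adjusted p under 0.05, in genes that had not passed. It turned by total counts for Cdk6 (log2 fold change 0.23), Gnas (0.30) and Srebf1 (0.32). Leaving out 1 library it turned for Srebf1 (-0.23 to 0.11, above 0 without control 2 or MYC 2), Igf2bp1 (-2.51 to 1.77, above 0 without control 2), Plagl1 (-0.34 to 0.62, below 0 without control 1 or MYC 1), Srebf2 (-0.08 to 0.20, below 0 without control 1) and Xist (-0.06 to 1.09, below 0 without control 2). The cause was not tested.

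Among the gene lists, counts of at least 4 that moved by over 1.5 times under other settings than those named in the report were the falls in DESeq2 of plasma proteins (13), amino acid breakdown (13), fatty acid oxidation (13) and periportal genes (9). Without the filter on low counts the falls were 4 among bile acid and ion carriers and 5 in the oxidising phase. With the 5 libraries alone 6 pericentral, 3 ATF4 target and 3 acute phase genes fell and 7 Kupffer cell genes rose. Under the replicate block the rises were 8 in mitosis, 4 in the p53 pathway and 2 among Kupffer cell genes. The falls under the block were 3 in glycolysis, 3 among plasma proteins, 5 in coagulation and complement, 2 in the acute phase, 4 among pericentral genes, 3 in amino acid breakdown and 8 among growth factors and receptors. Counts of 1 to 3 members in a list often moved by as much with single livers or settings.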

Other observations

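The 12 largest rises also held genes outside the lists. Shbg, a plasma carrier of sex steroids, had no counts in the controls and 27.3, 40.4 and 63.2 CPM in the MYC livers (at least 175-fold higher). Styk1, a receptor-like pseudokinase, had none in the controls and 20.5, 38.9 and 35.8 CPM with MYC (at least 127-fold higher), and Btnl10, a butyrophilin-like gene, none and 8.099, 43.3 and 19.6 CPM (at least 94.7-fold higher). Akr1b7, an aldo-keto reductase, had 1 count in the controls and 101, 192 and 72.4 CPM with MYC, 2839-fold (95% counting interval 509 to 112138) higher. All 4 calls were kept without each of the 5 livers. Thbs1, thrombospondin 1, which MYC is known to repress in other cells, was at 1.77 and 1.403 CPM in controls and 55.8, 56.7 and 30.7 CPM with MYC (4.91 ± 0.67, adjusted p = 0.00161). It is not typical of its list. Of 22 tested genes listed as repressed by MYC, 2 rose, 3 fell and 17 did not pass, with a median log2 fold change of -0.07. Among all genes 9.76% rose and 8.56% fell.

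Immediate-early genes, which respond within minutes to growth factors, stress or tissue handling, were lower with MYC. They were chosen after their values were seen. Egr1 was at 18.1, 9.67 and 17.1 CPM in MYC livers and 462 and 557 CPM in controls (-5.09 ± 0.53, adjusted p = 0.000518), Fos at 0.536, 0.631 and 0.348 CPM with MYC and 15.998 and 25.3 CPM in controls (-5.35 ± 0.60, adjusted p = 0.000552), Junb at 19.7, 14.4 and 13.2 CPM with MYC and 137 and 140.3 CPM in controls (-3.13 ± 0.35, adjusted p = 0.00056), and Ier2 at 11.9, 11.8 and 8.82 CPM with MYC and 83.2 and 94.7 CPM in controls (-3.04 ± 0.27, adjusted p = 0.000164). Btg2 lay at 20.7, 43.2 and 30.5 CPM with MYC and 48.9 and 61.1 CPM in controls without passing (-0.81 ± 0.43, adjusted p = 0.225). Nr1d1, a clock gene that cycles strongly over the day, fell from 189 and 202 to 23.6, 6.24 and 7.49 CPM (-3.97 ± 0.89, adjusted p = 0.0166), and its adjusted p was 0.0597 without MYC 2, 0.0784 without control 1 and 0.0791 without control 2. The hour and manner of collection are not given in the labels, and their part in these values was not tested.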
